A study of Oryzias latipes with 3 samples.

Results

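Enhancer candidates at moderate distance from promoters were examined in whole medaka (Oryzias latipes) embryos. They are peaks of acetylated lysine 27 of histone H3 (H3K27ac) that shared no base with a peak of trimethylated lysine 4 (H3K4me3), were narrower than 2500 bp, and had their midpoint more than 5 kb and at most 20 kb from the nearest H3K4me3 midpoint on the same chromosome. The rule selected 4843 of the 24027 H3K27ac peaks, or 20.2% (Wilson 95% interval 19.7 to 20.7). They made up 37.4% (36.6 to 38.3) of the 12938 H3K27ac peaks without H3K4me3, called H3K27ac-only below. Another 430 H3K27ac-only peaks lay in the same distance band and were left out for their width. All 4843 candidates were used, with no filter on low values.

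Chromatin immunoprecipitation followed by sequencing was done at developmental stage 24 on embryos kept at 26 °C, with chromatin of 600 embryos per sample. An antibody against H3K27ac was used for 2 samples and an antibody against H3K4me3 for 1. A single peak list of each mark was used, and the other H3K27ac sample was not analysed here. The labels name no treatment, and every sample came from whole, dechorionated embryos, so a peak can stem from any of their tissues and a shared position does not place both marks in the same cell.

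H3K27ac is deposited by the acetyltransferases p300 and CBP and marks nucleosomes beside active promoters and active enhancers. H3K4me3 is written around transcription start sites, so a peak of H3K27ac alone is commonly read as a possible enhancer. Enhancers are bound by transcription factors and act on promoters that may be neighbouring or remote. Both histone marks were the only measurements here, and enhancer activity was not measured.

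The absence of H3K4me3, the width and the distance chose the candidates, so these properties are given as descriptions. The score of a peak is the authors' value from their peak caller, in no stated unit, and scores of different lists were not compared. No difference below was tested or checked in a replicate, since a single list of each mark was used. Intervals on shares, densities and differences of medians cover counting error only. The number of the 24 chromosomes that showed a direction is given in place of a replicate spread. Positions count from 1 and belong to the authors' genome build, not given in the sources used.

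Narrow H3K27ac-only peaks, those under 2500 bp, were denser at 5 to 20 kb from H3K4me3 than at 2 to 5 kb or 20 to 100 kb, once the amount of sequence at each distance was counted. Of the 714 Mb enclosed by the outermost peaks of each chromosome, 197 Mb, or 27.6%, lay 5 to 20 kb from the nearest H3K4me3 midpoint. This sequence held 24.6 candidates per Mb (exact Poisson 95% interval 23.9 to 25.3). The density of narrow H3K27ac-only peaks was 13.9 per Mb (13.0 to 14.8) between 2 and 5 kb and 17.9 per Mb (17.4 to 18.4) between 20 and 100 kb. Candidate density exceeded the density at 20 to 100 kb on all 24 chromosomes, and likewise the density at 2 to 5 kb. Near H3K4me3 the exclusion of overlapping peaks removes peaks but no sequence, and the density at 2 to 5 kb is given under that rule only. The former ratio was 1.37 (1.32 to 1.43), and it was 1.35 without stretches of over 500 kb that lacked any peak.

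Within the band the number of candidates fell with distance while their density hardly changed. The first 5 kb of the band held 2120 candidates, the next 5 kb 1503 and the last 5 kb 1220. Their densities were 25.4 (24.3 to 26.5), 23.8 (22.6 to 25.0) and 24.2 (22.9 to 25.6) per Mb, intervals that overlap. The fall in number therefore followed the amount of sequence, which decreased from 83.5 to 63.2 and 50.3 Mb. By single kilobases, density was 14.1 per Mb (12.5 to 15.8) from 4 to 5 kb, 22.1 (20.1 to 24.4) from 5 to 6 kb, and 28.2 (25.7 to 30.8) from 7 to 8 kb, the highest of the 15 bins of the band. Beyond it density was 22.2 per Mb (21.1 to 23.3) at 20 to 30 kb, 18.9 (18.0 to 19.7) at 30 to 50 kb and 14.2 (13.5 to 14.9) at 50 to 100 kb. The value at 20 to 30 kb lies within the range of the single bins of the band, 21.0 to 28.2. The upper limit of 20 kb thus fell on a gradual decline, whereas the lower limit of 5 kb fell on a step. Peaks sharing a base with H3K4me3 were left out, while all sequence at that distance was counted. In the band the number of candidates stayed at 4843 when only peaks covered for 50% of their length by H3K4me3 counted as overlapping. The median width of H3K4me3 peaks was 1151 bp and the widest measured 6599 bp. Densities below 5 kb were not recomputed under another overlap rule, and the cause of the step was not tested.

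**Figure D1:**
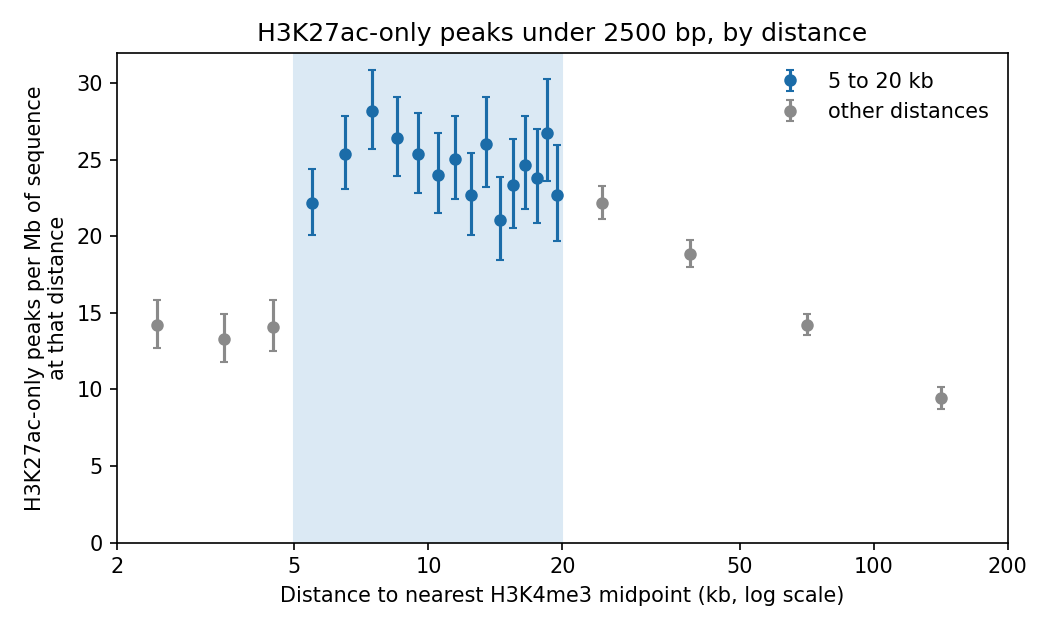
H3K27ac-only peaks under 2500 bp per Mb of sequence (vertical axis) against distance to the nearest H3K4me3 midpoint in kb (log scale); bars are exact Poisson 95% intervals and the shaded band holds the candidates. Density rose from 14.1 to 22.1 per Mb across 5 kb and declined beyond 20 kb, to 14.2 per Mb at 50 to 100 kb.

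Scores of the peaks just inside and just outside each limit of the rule overlapped. The candidates closest to 5 kb lay on chromosome 21 at 20494925 to 20497088, with a score of 473, and on chromosome 23 at 2575790 to 2576662, with a score of 61.7, both at 5005.5 bp. Just outside were peaks on chromosomes 3 and 1 at 4992 and 4990.5 bp, with scores of 94.4 and 116. At the far limit, candidates at 19991.5 bp on chromosome 12 and 19989 bp on chromosome 21 scored 165 and 70.4, and the peaks left out at 20013 and 20042 bp scored 288 and 100. The widest candidates measured 2497 and 2493 bp, with scores of 729 and 248, and the narrowest peaks left out in the band measured 2500 and 2501 bp, with scores of 203 and 1283.

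Candidates were weak peaks for the most part, with a small strong tail. Their median score was 109 (interquartile range 70.0 to 190), the lowest chromosome median was 97.4 on chromosome 20 and the highest 123 on chromosome 11. Of the candidates, 24.2% (23.1 to 25.5) scored above the median of all H3K27ac peaks, 195, and 2.21% (1.83 to 2.66) were in the top quintile of that list. Distance within the band was hardly related to score over the candidates (Spearman's rho -0.022, n = 4843, peaks of a single library). The strong tail was thinner at the far end: 34 candidates scored above 1000, of which 17 lay at 5 to 10 kb, 14 at 10 to 15 kb and 3 at 15 to 20 kb. The share in the top quintile was 2.45% (1.88 to 3.20), 2.46% (1.79 to 3.37) and 1.48% (0.935 to 2.32) in the same order, intervals that overlap.

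Over all widths together, candidates differed little in median score from acetylated sites at 20 to 100 kb. The median was 109 for candidates and 104 (interquartile range 68.9 to 182) for the 5089 narrow H3K27ac-only peaks at 20 to 100 kb, a difference of 5.40 that was positive on 16 chromosomes and negative on 8. The difference was 16.9 when only H3K4me3 peaks of the upper 50% by score were used. Under the other alternatives it was between 5.40 and 7.57, except for a list limited to the upper 50% of H3K27ac scores. There it was -2.31 (-14.9 to 10.3). That list is limited by the measure compared. The strong tail was larger among candidates: 2.21% of them were in the top quintile of scores, against 1.30% (1.02 to 1.65) at 20 to 100 kb and 0.840% (0.408 to 1.72) of the 833 peaks beyond 100 kb. Flanking peaks, the 1262 within 5 kb, had a share of 2.85% (2.07 to 3.92), whose interval overlaps that of the candidates.

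Score depended on width, and candidates had a lower median than flanking peaks only in the narrowest width group. Over the candidates, score rose with width (rho 0.64), from a median of 68.4 below 800 bp to 249 at 2000 to 2500 bp. Below 800 bp, candidates scored lower than flanking peaks, with medians of 68.4 and 77.0, and they were the higher group on 5 of 24 chromosomes. No candidate scored below 50, so these medians lie near the lower end of the scores. In all wider groups the order was opposite. From 800 to 1000 bp the medians were 106 for candidates and 91.5 for flanking peaks, with candidates higher on 16 of 24 chromosomes. From 1000 to 1500 bp they were 137 and 116, with candidates higher on 15 of 24. From 1500 to 2000 bp the median was 196 (interquartile range 129 to 311) for 779 candidates and 130 (85.9 to 242) for 205 flanking peaks. Candidates were higher there on 19 of 24 chromosomes. From 2000 to 2500 bp it was 249 (168 to 421) for 364 candidates and 176 (96.0 to 275) for 105 flanking peaks, with candidates higher on 17 of 24. The distal medians at these widths were close to those of the candidates but slightly higher, at 207 and 258. Candidates were the higher group on 9 and 13 of 24 chromosomes. Peaks beyond 100 kb had higher medians than candidates, 229 for 95 peaks and 327 for 43. Candidates were higher than these on 8 of 23 and 6 of 18 chromosomes. From 1000 to 1500 bp the medians were 137 (candidates), 139 (distal) and 150 (beyond 100 kb). Below 800 bp the distal and remote medians were slightly lower than the candidates', at 67.8 and 66.9.

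With the overlap rule as used, the score of wide H3K27ac-only peaks rose up to about the lower limit of the band and was level within it. At 1500 bp or more in width, the median was 129 (interquartile range 73.4 to 227) within 3 kb of H3K4me3, 141 (94.0 to 270) at 3 to 4 kb and 182 (109 to 303) at 4 to 5 kb. Among candidates of that width it was 224 (142 to 321) at 5 to 6 kb, 212 (137 to 340) at 6 to 8 kb, 215 (149 to 347) at 10 to 15 kb and 197 (117 to 296) at 15 to 20 kb. The interquartile ranges of all these groups overlap. The difference between wide candidates and wide flanking peaks, 71.2, fell to 13.4 among H3K27ac peaks of the upper 50% by score, a list limited by the measure compared, and to 18.0 when only peaks covered for 50% of their length by H3K4me3 counted as overlapping.

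**Figure D2:**
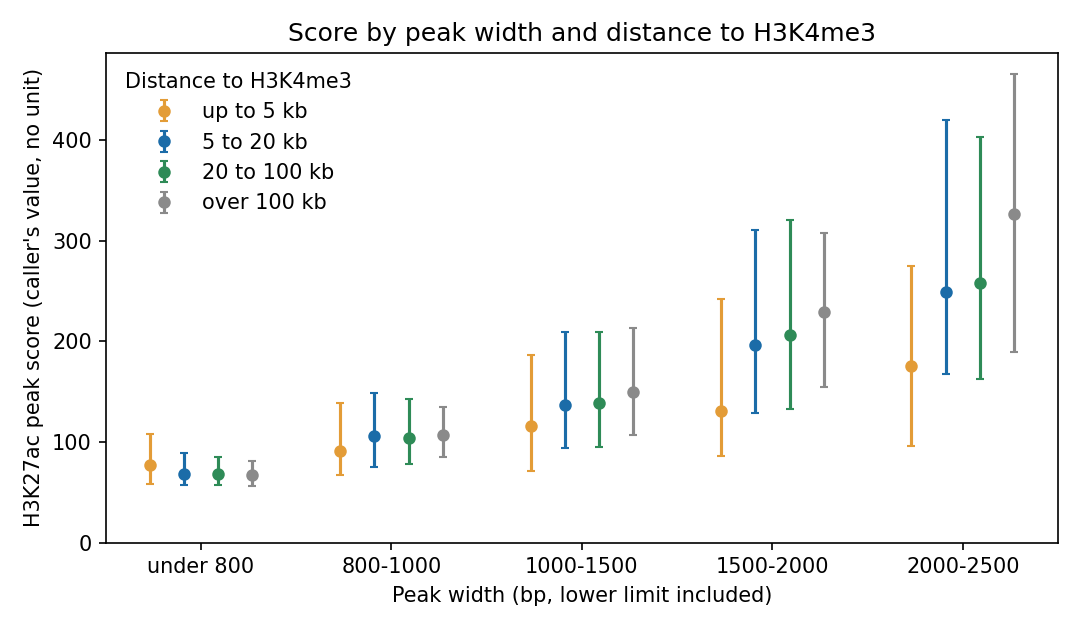
Score of H3K27ac-only peaks (vertical axis, the caller's value without unit) by peak width in bp (horizontal axis) and distance class; points are medians and bars interquartile ranges over peaks. From 1500 bp upwards the flanking peaks had the lowest medians, 130 and 176, against 196 and 249 for candidates; below 800 bp they had the highest, 77.0 against 68.4.

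Candidate widths spanned 274 to 2497 bp and had a median of 1013 bp (interquartile range 717 to 1471). Together the candidates covered 5.48 Mb. Chromosome medians ran from 871 bp on chromosome 14 to 1146 bp on chromosome 9. The median width was 975 bp at 20 to 100 kb and 886 bp beyond 100 kb. Candidates were wider than the former on 15 of 24 chromosomes and wider than the latter on 20. Flanking peaks had a median of 1056.5 bp, and candidates were narrower than those on 14 chromosomes and wider on 10. Width did not follow distance within the band (rho 0.004, n = 4843).

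The 10 candidates of highest score ranged from 1332 to 2706, and 9 of them had an H3K4me3 peak that also carried H3K27ac as nearest neighbour. That is near the share among all candidates, 86.7%. The strongest lay on chromosome 4 at 4699898 to 4701921, 5.81 kb from an H3K4me3 peak of score 1099 whose own H3K27ac peak scored 1526. The next, of score 2596, was a 955 bp peak on chromosome 11 at 22634774 to 22635728, and it was the exception: the H3K4me3 peak 7.78 kb away scored 138 and carried no H3K27ac peak. The candidate on chromosome 9 at 16778326 to 16780799 scored 2125, and the one on chromosome 13 at 17337208 to 17339259 scored 2047, against 120 for the H3K27ac peak at the H3K4me3 site 6.97 kb from it. Of the 9 with an acetylated neighbour, 6 outscored the H3K27ac peak at that H3K4me3 site.

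The other members of this group were a candidate of score 1843 on chromosome 11 at 21408368 to 21409865 and a candidate of score 1610 on chromosome 23 at 20818147 to 20820398. A candidate of score 1556 on chromosome 17, at 31733823 to 31735460, sat almost midway between H3K4me3 peaks 5.87 and 6.50 kb away. The candidate of score 1410 on chromosome 2, at 20258856 to 20260486, was the farthest of the group, at 19.9 kb. The remaining candidates, on chromosome 5 at 24239491 to 24241627 and on chromosome 21 at 26356308 to 26358509, scored 1365 and 1332 and had H3K4me3 within 20 kb on both sides.

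Such candidates were uncommon. Of the 4186 candidates whose nearest H3K4me3 peak could be paired with its own H3K27ac peak, 14.3% (13.3 to 15.4) outscored it. The median score was 110 for these candidates and 493 for the H3K27ac peak at the H3K4me3 site. Both scores come from a single list, and across pairs they were hardly related (rho 0.036, n = 4186).

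Most candidates had an acetylated nearest H3K4me3 peak, at a share near that of all H3K4me3 peaks. Candidate density was somewhat higher around acetylated H3K4me3 peaks than around the others. Of the candidates, 86.7% (85.7 to 87.6) had a nearest H3K4me3 peak that overlapped H3K27ac. The share was 85.8% (84.8 to 86.7) for the narrow H3K27ac-only peaks at 20 to 100 kb. Of all 12884 H3K4me3 peaks, each counted once, 85.9% (85.3 to 86.5) overlapped H3K27ac. For flanking peaks the share was lower, at 73.9% (71.4 to 76.3). The median score of the nearest H3K4me3 peak was 975 for candidates, near the median of 1013.5 over all H3K4me3 peaks. It was 961 for peaks at 20 to 100 kb, 826 beyond 100 kb and 469 for flanking peaks. Per Mb of sequence in the band, acetylated H3K4me3 peaks had 25.1 candidates (24.4 to 25.9) and those without H3K27ac 21.5 (19.8 to 23.2), intervals that do not overlap.

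The candidates were spread over many promoter-marked sites. They shared 3546 nearest H3K4me3 peaks, 27.5% (26.8 to 28.3) of the list. A single candidate was found for 2534 of these, 2 candidates for 772, 3 for 200, 4 for 35 and 5 for 5, so 47.7% of candidates shared their nearest H3K4me3 peak with another. They lay to the lower-coordinate side of H3K4me3 in 49.9% (48.5 to 51.3). The lists carry no strand, so upstream and downstream were not told apart.

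Candidates were denser around wide H3K4me3 peaks. The narrowest quintile of H3K4me3 peaks, up to 815 bp, had 19.6 candidates per Mb of their sequence in the band (18.2 to 21.0), and density rose through 21.6, 22.3 and 25.3 to 33.5 (31.8 to 35.2) for the widest quintile, from 1541 bp upwards. The ratio of widest to narrowest was 1.71 (1.57 to 1.86), above 1 on all 24 chromosomes, where it ranged from 1.21 to 3.24. Width of H3K4me3 was not used to choose the candidates. At least a single candidate was nearest to 37.3% (35.4 to 39.2) of the widest peaks and 23.7% (22.1 to 25.4) of the narrowest.

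Candidate density did not rise steadily with the score of the H3K4me3 peak. By score, density was highest in the middle quintile, at 28.0 per Mb (26.3 to 29.7), and lower in the lowest quintile, at 20.4 (19.0 to 21.8), and in the highest, at 22.0 (20.6 to 23.5). Within each score quintile the widest H3K4me3 peaks still had more candidates per Mb than the narrowest. In the middle quintile of score the values were 43.1 (38.9 to 47.6) and 19.0 (15.0 to 23.8). In the lowest quintile they were 27.5 (16.5 to 42.9) and 18.7 (17.1 to 20.4) and in the fourth 35.5 (32.1 to 39.2) and 25.3 (17.9 to 34.7), intervals that overlap. In the highest quintile a single candidate belonged to the narrowest peaks.

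The increase with width was also present around well separated H3K4me3 peaks. Among H3K4me3 peaks with at least 40 kb to the next H3K4me3 midpoint on both sides, which all have the same amount of sequence in the band, density rose from 15.5 per Mb (13.5 to 17.8) for the narrowest quintile to 38.2 (34.9 to 41.7) for the widest. A candidate was nearest to 62.7% (58.1 to 67.1) of the latter, against 33.6% (29.4 to 38.0) of the former. The relation was not restricted to the band, since density at 20 to 100 kb rose from 12.4 to 27.0 per Mb over the same quintiles, a ratio of 2.18.

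Candidates next to wide H3K4me3 peaks were also wider themselves. Their median width was 924 bp (interquartile range 681 to 1316) around the narrowest quintile and 1165 bp (788 to 1616) around the widest, a difference of 241 bp that was positive on 22 of 24 chromosomes. Over all candidates the widths were weakly related (rho 0.16, n = 4843). Candidate score changed less, from a median of 104 to 115, with a positive difference on 18 chromosomes. The relation to width was again not restricted to the band, since the median width of peaks at 20 to 100 kb was 873 bp around the narrowest H3K4me3 quintile and 1074.5 bp around the widest.

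**Figure D3:**
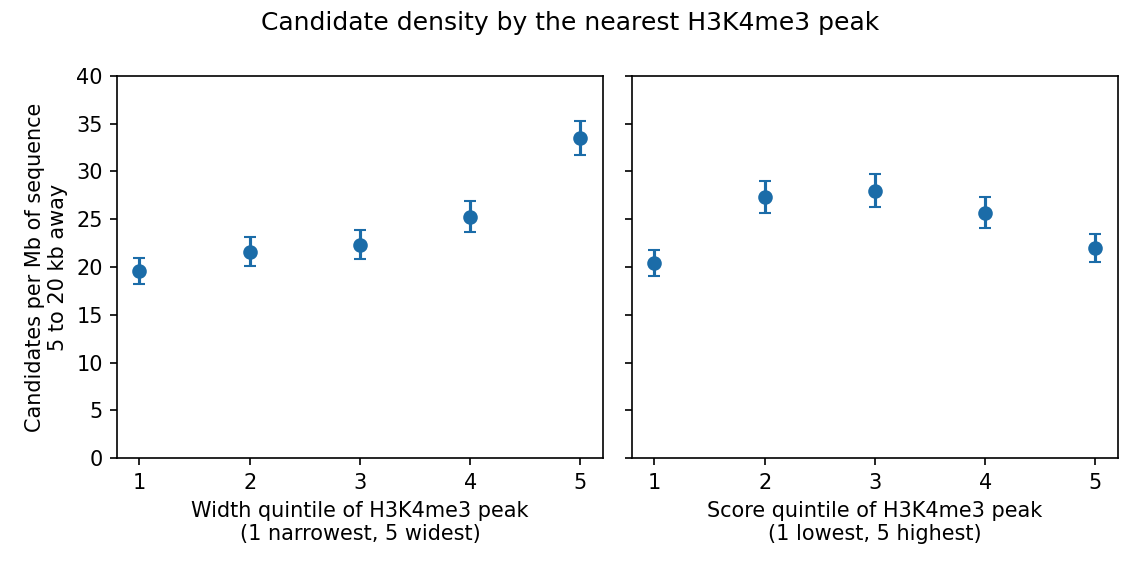
Candidates per Mb of sequence 5 to 20 kb from H3K4me3 (vertical axes) by quintiles of the width (left) and score (right) of the nearest H3K4me3 peak; bars are exact Poisson 95% intervals. Density rose with width, from 19.6 to 33.5 per Mb, and was highest in the middle quintile of score, at 28.0 per Mb.

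The share of stretches between neighbouring H3K4me3 peaks that held a candidate was highest at intermediate lengths. Stretches of 10 kb or less between H3K4me3 midpoints, 24.3% (23.5 to 25.0) of all, can hold no candidate by the rule. In stretches of 10 to 15 kb, 4.07% (3.17 to 5.21) held a candidate, and the share rose to 51.7% (49.0 to 54.3) of those of 40 to 60 kb. Longer stretches offered no further sequence in the band, and the share was 44.3% (41.5 to 47.2) at 100 to 200 kb and 38.5% (34.9 to 42.3) above 200 kb. Density per Mb was 17.2 (13.1 to 22.0) in stretches of 10 to 15 kb, 28.2 (26.6 to 29.9) at 40 to 60 kb and 19.3 (17.5 to 21.4) above 200 kb.

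The H3K4me3 peak on the other side of a candidate was at a median of 41.1 kb (interquartile range 23.4 to 84.2). It was within 20 kb for 898 candidates, or 18.5% (17.5 to 19.7), and 11 candidates had H3K4me3 peaks on 1 side only. Candidates with H3K4me3 within 20 kb on both sides measured 1016 bp and scored 114 at the median, compared with 1016 bp and 108 for those with the other H3K4me3 peak more than 100 kb away. The median of either measure thus hardly depended on the far neighbour. The share in the top quintile of scores was 3.23% and 1.56%.

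For most candidates the nearest H3K27ac peak either overlapped H3K4me3 or was another candidate, the former about as often as in the whole list. The nearest H3K27ac peak of any kind was a median of 6.02 kb away, edge to edge. It overlapped H3K4me3 for 47.7% of candidates and was another candidate for 34.2% (32.9 to 35.5). Of all 24027 H3K27ac peaks, 11089 overlapped H3K4me3 and 4843, or 20.2%, were candidates. Another H3K27ac-only peak lay between candidate and nearest H3K4me3 peak for 27.1% (25.9 to 28.4) of all candidates, which was 12.9% (11.5 to 14.4) of candidates at 5 to 10 kb, 31.1% (28.8 to 33.5) at 10 to 15 kb and 47.0% (44.3 to 49.9) at 15 to 20 kb. The share rose with the length of the way, and no H3K27ac-only peak was called on it for most candidates of each group.

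Most candidates had no other candidate within 10 kb, but most had some H3K27ac peak there. Of all candidates, 37.4% (36.0 to 38.8) had another candidate within 10 kb, and these formed 817 runs, of which 670 held 2 candidates, 123 held 3, 19 held 4, 4 held 5 and 1 held 6. The corresponding share was 46.0% (44.7 to 47.4) for peaks at 20 to 100 kb. That class spans a longer range of distances, and the cause of its higher share was not tested. An H3K27ac-only peak of any width and distance lay within 10 kb of 50.4% (49.0 to 51.8) of candidates, and an H3K27ac peak of any kind within 10 kb of 76.5% (75.3 to 77.7), so a candidate counted as alone here may still have other acetylated peaks nearby. When H3K27ac peaks up to 2 kb apart were merged first, the share of candidates with a neighbour fell to 23.6%.

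Candidates in runs were wider and scored lower than those alone. The median width was 1102 bp (interquartile range 788 to 1520) in runs and 954.5 bp (683 to 1430) alone, and runs had the larger median on 21 of 24 chromosomes. The median score was 102 (67.9 to 177) in runs and 114 (71.8 to 198) alone, lower in runs on 22 of 24 chromosomes. At equal width the gap was small for the narrowest candidates and larger for wider ones. No candidate scored below 50, and scores of the narrowest lay close to that value, which leaves little room for a gap. Below 800 bp the median score was 66.1 (56.1 to 83.9) for 472 candidates in runs and 69.4 (58.3 to 92.9) for 1143 alone, lower in runs on 16 of 24 chromosomes. From 800 to 1000 bp it was 98.1 in runs and 111 alone, and from 1000 to 1500 bp 118 and 149. From 1500 to 2000 bp it was 157 (102 to 252) for 334 candidates in runs and 222 (154 to 347) for 445 alone, lower in runs on 22 of 24 chromosomes, and from 2000 to 2500 bp it was 225 and 278. The interquartile ranges overlap at every width.

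The overall difference in score was smaller without peaks that lay close together. Among run candidates with no H3K27ac peak within 2 kb the median score was 111 over all widths and 188 from 1500 to 2000 bp. After merging of peaks up to 2 kb apart, the overall difference in score between run and lone candidates was -4.45, compared with -12.2 as called. Among H3K27ac peaks of the upper 50% by score it was 14.95 and the width difference -79.0 bp, so neither direction held there; that list is limited by score itself.

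**Figure D4:**
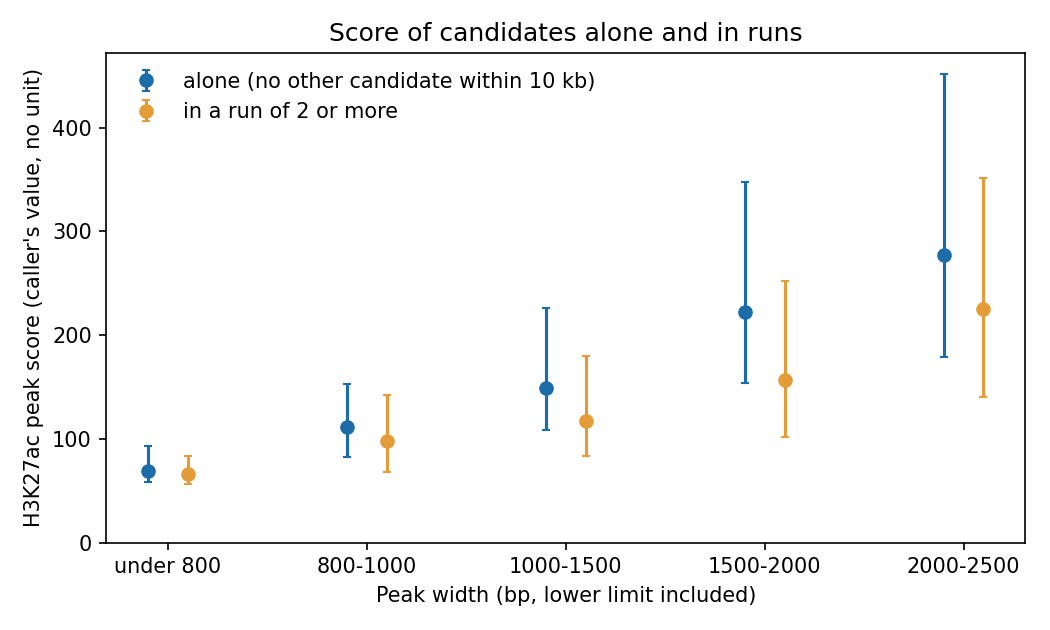
Score of candidates (vertical axis, the caller's value without unit) by peak width in bp, for candidates alone and in runs of 2 or more with gaps up to 10 kb; points are medians and bars interquartile ranges over peaks. Run candidates had the lower median at every width, 157 against 222 from 1500 to 2000 bp, with overlapping ranges.

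The run with most candidates lay on chromosome 3 at 23251140 to 23279631 and held 6 over 28.5 kb. Their scores ran from 57.0 to 262, and an acetylated H3K4me3 peak lay among them. The 4 runs of 5 candidates contained no H3K4me3 peak. They lay on chromosome 4 at 7990500 to 8009009, on chromosome 9 at 27953444 to 27978616, and on chromosome 17 at 26473969 to 26502998 and 28059511 to 28082346. Candidates covered between 25.6% and 32.1% of the 5 runs. Median scores ran from 69.7 to 163, and that of 1 run, the former on chromosome 17, was above the median of all candidates.

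**Figure D5:**
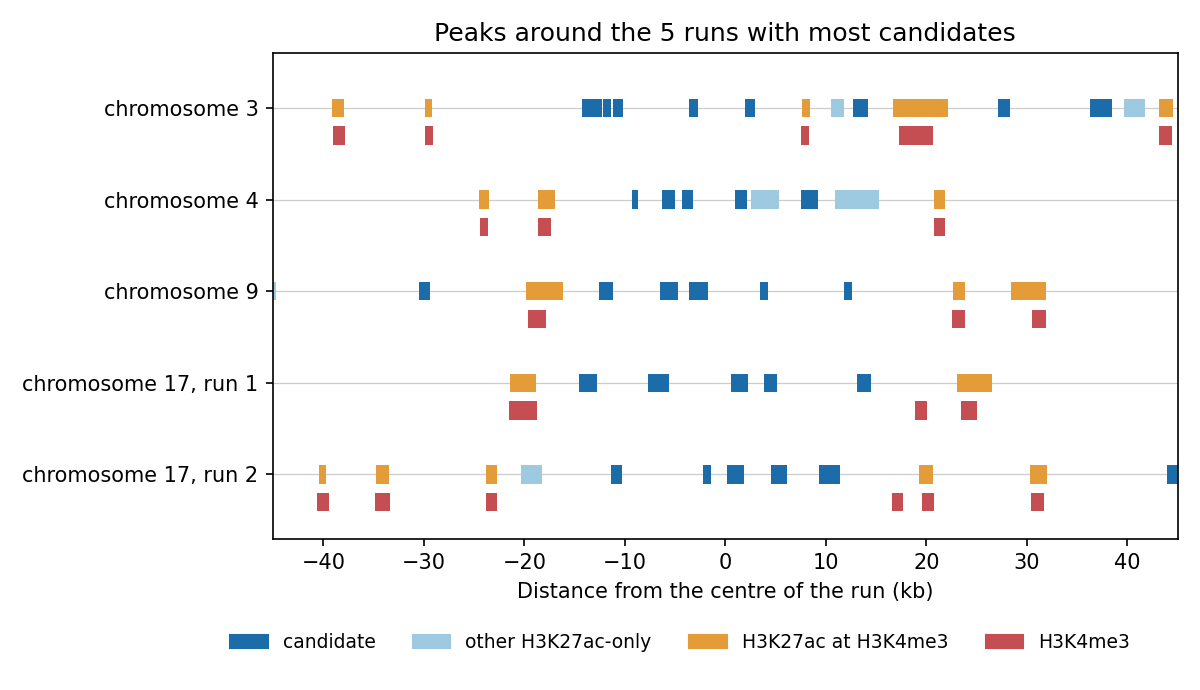
Peaks within 45 kb of the centre of the 5 runs with most candidates. The horizontal axis is the distance from the centre in kb, and each line carries H3K27ac peaks, with H3K4me3 peaks below it. The run on chromosome 3 contains an H3K4me3 peak, whereas the other runs lie between H3K4me3 peaks.

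The H3K4me3 peaks with 5 candidates each were 5 in number, all acetylated, with candidates on both sides. Among all H3K4me3 peaks, 85.9% were acetylated. They lay on chromosome 3 at 3674207 to 3675206, chromosome 4 at 13578546 to 13579090, chromosome 10 at 23121006 to 23122873, chromosome 22 at 14089977 to 14091631 and chromosome 23 at 16753860 to 16756586. Of these, 3 were in the widest quintile of H3K4me3 peaks. The peak on chromosome 4 was 545 bp wide with a score of 54.9, and its candidates were 1242 to 1841 bp wide with scores of 65.7 to 98.3. The peak on chromosome 23 was at the opposite end, 2727 bp wide with a score of 3100, yet its candidates scored between 56.8 and 130.

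All 24 chromosomes carried candidates, from 114 on chromosome 2 to 259 on chromosome 5. Per Mb of sequence in the band, density was lowest on chromosome 2, at 19.2 (15.9 to 23.1), and highest on chromosome 15, at 30.8 (27.1 to 35.0), extremes picked from 24. The candidates' share of H3K27ac-only peaks ran from 28.1% on chromosome 20 to 49.4% on chromosome 24. On chromosome 24 density was 30.3 per Mb in the band and 14.6 at 20 to 100 kb, whereas on chromosome 20 the values were 23.4 and 21.9. Chromosome 1, the medaka sex chromosome, held 236 candidates, or 4.87%, and 10.3 of the 197 Mb in the band. Its density was 22.9 per Mb (20.1 to 26.0), against 24.6 over all chromosomes. Stitched domains of 5 or more H3K27ac-only peaks contained 263 candidates, or 5.43% (4.83 to 6.10). The same share was not computed for other H3K27ac-only peaks, so whether it is high or low for candidates is not known.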

How the data were processed

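Chromatin of whole stage 24 embryos was immunoprecipitated for H3K27ac or H3K4me3, and fragments of 200 to 300 bp were sequenced, per the labels' protocols. Alignment was by Bowtie, per the submitters' processing notes, and the name of the MACS peak caller is part of each deposited peak name. For the caller's version, settings and control, for the genome build and for any pooling of samples, the answer is not given in the sources used. Each deposited list holds position, name and a score per peak, the authors' value, of unstated meaning. Read depth is unknown.

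Starting from the lists, overlap meant at least 1 shared bp and distance was between midpoints. Members found with bedtools 2.31.1 were identical in number. Density was peaks per Mb of sequence at that distance, between the first and last peak of each chromosome. Runs joined candidates with edges up to 10 kb apart. Shares carry Wilson and densities exact Poisson 95% intervals. The interval of a ratio of densities came from both counts on a log scale. The interval of a difference of medians combined the order-statistic 95% intervals of both medians. The routines, written in Python 3.11.15 with pandas 2.3.3, NumPy 2.4.6 and SciPy 1.17.1 and plotted with matplotlib 3.10.9, were tested on simulated data. Peaks are not replicates, so p-values were not computed.

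Named regions are the 10 candidates of highest score, the 5 H3K4me3 peaks with most candidates, the 5 runs with most candidates and the 2 peaks on each side of every limit. The candidates and measures were chosen with earlier results of these data known. The gene table at hand ended before the last peak on 8 of 24 chromosomes and so was of another build; genes were not used here.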

Additional observations from a re-analysis of the deposited data

How the results depend on the processing

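Alternatives were run for 15 results, of which the densities, the score of wide peaks and the comparison of runs were chosen after seeing the data. Of the 110 values, 58 stayed within the counting interval of the reported value (for the number of candidates, within 1.5 times), 49 moved outside it and 3 changed sign. Counting as overlapping only peaks covered for 50% by H3K4me3, or also peaks within 1 kb of it, left the candidates as they were, since peaks that near lie inside the lower limit. No paired analysis was possible because a single list stood for each mark. Depth is unknown, so sites below the caller's limit cannot be counted.

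The upper 50% of H3K27ac peaks by score is limited by a measure compared here. With it there were 1174 candidates, with a median score of 291 and a median width of 1564 bp. A nearest H3K4me3 peak with H3K27ac was then found for 71.6%. This list also leaves out weaker H3K27ac peaks at H3K4me3, and the share of all H3K4me3 peaks that overlap it was not computed. Candidates were nearest to 8.42% of H3K4me3 peaks, 10.1% had another candidate within 10 kb, 19.9% had H3K4me3 within 20 kb on both sides and 7.33% had an H3K27ac-only peak on the way. Density was 5.96 per Mb, 1.48 times the distal density, and the ratio of widest to narrowest H3K4me3 quintile was 2.09. Candidates minus distal peaks gave a score difference of -2.31, wide candidates minus wide flanking peaks 13.4, and run minus lone candidates 14.95 in score and -79.0 bp in width.

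In another alternative, only the upper 50% of H3K4me3 peaks by score set both distance and overlap. Its candidates could therefore share bases with weaker H3K4me3 peaks. Their median score was 135 and their median width 969 bp. The share with an acetylated nearest H3K4me3 peak was 99.2%, and the acetylated share of all H3K4me3 peaks in this list was not computed. The share of H3K4me3 peaks nearest to a candidate was 46.6%. Another candidate lay within 10 kb for 43.4%, H3K4me3 within 20 kb on both sides for 11.2% and an H3K27ac-only peak on the way for 30.6%. Density was 34.7 per Mb, 1.27 times the distal density, and the quintile ratio was 1.39. The score differences were 16.9 (distal), 45.5 (wide flanking) and -20.2 (runs), and the width difference 98.0 bp.

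After merging peaks up to 2 kb apart, the median score was 115, the density 21.0 per Mb, the score difference of runs -4.45, and the shares 25.9% (H3K4me3 peaks nearest to a candidate), 23.6% (candidate within 10 kb) and 16.3% (peak on the way). With no limit on width, the median score was 116, the median width 1088 bp, the density 26.8 per Mb, the width difference of runs 210.0 bp, and the first 2 of these shares 28.9% and 40.8%. Distance between edges gave 26.0% of H3K4me3 peaks, 16.3% with H3K4me3 within 20 kb on both sides, 31.0% with a peak on the way and 44.1 for the score of wide peaks. The 50% coverage rule gave 29.7% with a peak on the way and 18.0 for the score of wide peaks, and the 1 kb rule 25.1% with a peak on the way. Joining candidates over 5 kb gave 25.0% with a neighbour, -20.8 in score and 96.0 bp in width, and over 20 kb 49.8% with a neighbour. For the merged, edge and 5 kb values the cause was not tested.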

Other observations

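Of H3K4me3 peaks with 2 candidates and equal room on both sides, 109 of 249 had them on opposite sides. Of the 772 H3K4me3 peaks with 2 candidates, 245, or 31.7% (Wilson 95% interval 28.5 to 35.1), had them on opposite sides. These include H3K4me3 peaks with unequal sequence open on the 2 sides, so this share cannot be set against 50%. Among them, 249 had at least 40 kb to the next H3K4me3 midpoint on both sides, so the same amount of sequence was open on each side. There the share was 43.8% (37.8 to 50.0), with an upper limit next to 50%. Peaks close together were not merged for these counts.

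Adjacent candidates of a run were more alike in width than in score. Over 994 adjacent pairs, Spearman's rho was 0.26 for width and 0.06 for score. The pairs share a library and a position in the genome, so these values are descriptions.

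Candidates with an H3K27ac peak of any kind within 2 kb, 843 in number, had the lowest median score of the groups by gap, 91.4 (interquartile range 64.9 to 142), at a median width of 1077 bp. With the next H3K27ac peak 5 to 10 kb away the median score was 120 (73.5 to 211) and the median width 989 bp. Beyond 20 kb, 132 candidates had a median score of 101 (72.8 to 192) and a median width of 771 bp.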
